A study of Mus musculus with 16 samples.

Results

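E-box regions, as the name is used here, were the 2206 open chromatin regions of C2C12 iMyoD1 myoblasts that lay away from transcript starts and carried CAGCTG but no AP-1 motif near their summit. They came from 26213 union regions, obtained by merging the 14710 strongest peaks (by −log10 p) of each of 14 ATAC-seq libraries. The summit of a union region was that of its strongest peak. Of the union regions, 15878 had their summit more than 1 kb from any GENCODE M21 transcript start and are called distal. Among these, 2206 held CAGCTG within 100 bp of the summit without TGACTCA or TGAGTCA there. Another 5372 held the AP-1 heptamer without CAGCTG (AP-1 regions), 1418 held both and 6882 held neither. The rule read sequence and position around that summit. Because the strongest peak of any library placed the summit, measured peak strength decided which window was read. The rule compared no groups, but it needed a strong peak in at least 1 library and was set with earlier results of these data known. The −log10 p was not put on a common scale between libraries, so libraries with higher values could place more of the summits. The part of this in the group differences below was not tested.

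ATAC-seq marks open chromatin by the DNA that a transposase can cut. C2C12 iMyoD1 is a mouse myoblast line with its own Myod1 gene and an integrated piggyBac cassette from which doxycycline (dox) switches on Halo-tagged MyoD1, so every group carried both the endogenous gene and the transgene. Cells received 1 µg/mL dox or vehicle for 24 h, either in growth medium with 20% serum (GM) or during 24 h of serum withdrawal (DM), which gave 4 groups of 4 libraries: GM without dox (GM no dox), GM +dox, and the same pair in DM. The study's own methods set the first replicate of both DM groups aside. They were left out here too, so that each GM group kept 4 libraries and each DM group 3. Seeding was 75000 cells per GM well but 300000 per DM well, and medium and seeding density therefore cannot be told apart. All libraries came from 1 engineered line, and the labels number them as biological replicates. The deposited lists held 14710 to 58587 peaks in the kept libraries, and the background coverage solved from the peak statistics was 0.339 to 1.13 fragments per base. DM +dox lists were longer than DM no dox lists without overlap (46241 to 51340 against 23690 to 40599 peaks), whereas their background coverage overlapped (0.732 to 1.13 against 0.511 to 0.901). Of 7 myoblast genes, a peak within 10 kb was among the strongest of all 14 libraries for Myod1, where it could include transgene DNA, of 12 for Itga7, of 10 for Cdh15 and of 6 for Vcam1. Myf5, Des and Myog had a strong peak in 0 of 14, and when weaker deposited peaks counted they had one in 9, 13 and 3. For the blood gene Ptprc and the epithelial gene Epcam no strong peak was listed in any library, while those for Dpt and Cd68 were strong in all 14. The other epithelial gene, Cdh1, had a strong peak in 3 libraries and any deposited peak in 13. For the endothelial genes Pecam1 and Cdh5 these counts were 5 and 14, and 0 and 7. For the mesenchymal genes Pdgfra and Ly6a they were 1 and 13, and 1 and 6.

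MyoD1 is a basic helix-loop-helix factor that pairs with E proteins and binds E-boxes, of which CAGCTG is a preferred form. It can bind in closed chromatin and recruits enzymes that open it, and it drives myoblasts into the muscle programme. AP-1 is a dimer of Fos and Jun proteins that occupies many distal enhancers of growing cells, and its heptamer marks the largest motif class beside which the E-box regions are set. Other helix-loop-helix factors bind the same hexamer, and neither MyoD1 nor AP-1 binding was measured in these libraries.

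The windows below run 100 bp to each side of the summit on the plus strand of GRCm38 (mm10), with CAGCTG in capitals. The name is that of the nearest protein-coding gene by transcript start, which need not be the gene that a region acts on. The first 4 are windows of regions whose peak height passed the limma test between GM and DM, described further on. The Arid3a window holds 2 copies of the hexamer and the others 1.
Arid3a, chr10:79934396-79934596: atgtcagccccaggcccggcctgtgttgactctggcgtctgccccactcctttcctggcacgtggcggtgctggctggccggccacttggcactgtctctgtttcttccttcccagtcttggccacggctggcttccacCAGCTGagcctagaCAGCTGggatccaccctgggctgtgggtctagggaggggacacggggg
Adgrl4, chr3:151117801-151118001: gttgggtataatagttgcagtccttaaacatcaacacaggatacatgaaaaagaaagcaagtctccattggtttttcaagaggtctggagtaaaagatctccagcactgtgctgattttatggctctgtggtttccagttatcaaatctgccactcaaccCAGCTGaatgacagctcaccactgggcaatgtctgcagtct
Npepps, chr11:97207128-97207328: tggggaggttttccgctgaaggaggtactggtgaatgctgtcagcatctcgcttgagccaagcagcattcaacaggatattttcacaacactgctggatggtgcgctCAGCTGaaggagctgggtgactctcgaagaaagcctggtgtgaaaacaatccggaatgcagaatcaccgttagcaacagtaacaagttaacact
Errfi1, chr4:150837552-150837752: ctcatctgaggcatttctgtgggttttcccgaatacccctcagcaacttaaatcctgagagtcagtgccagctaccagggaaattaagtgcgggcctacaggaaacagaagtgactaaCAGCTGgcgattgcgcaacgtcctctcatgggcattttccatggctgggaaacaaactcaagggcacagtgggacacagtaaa
The next set shows regions with a strong peak in every +dox library and in no library without dox, the first 3 in GM and the last 2 in DM.
Agap1, chr1:89538645-89538845: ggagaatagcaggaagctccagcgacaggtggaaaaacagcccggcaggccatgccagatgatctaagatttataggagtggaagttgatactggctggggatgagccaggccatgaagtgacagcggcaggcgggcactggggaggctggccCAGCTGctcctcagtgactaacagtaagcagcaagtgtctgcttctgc
Hsf1, chr15:76485337-76485537: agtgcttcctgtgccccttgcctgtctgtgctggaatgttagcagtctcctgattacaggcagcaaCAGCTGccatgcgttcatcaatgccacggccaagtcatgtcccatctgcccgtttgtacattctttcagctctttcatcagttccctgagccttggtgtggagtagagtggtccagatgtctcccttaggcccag
Cd44, chr2:102937007-102937207: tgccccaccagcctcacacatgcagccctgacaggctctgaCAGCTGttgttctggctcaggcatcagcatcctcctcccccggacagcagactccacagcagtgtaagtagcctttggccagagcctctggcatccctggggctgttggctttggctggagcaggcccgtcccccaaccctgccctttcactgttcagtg
Ptpre, chr7:135551604-135551804: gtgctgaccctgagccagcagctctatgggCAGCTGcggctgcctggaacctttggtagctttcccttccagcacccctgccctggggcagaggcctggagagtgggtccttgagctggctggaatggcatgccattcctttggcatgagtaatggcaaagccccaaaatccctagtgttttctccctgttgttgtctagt
Ubap2, chr4:41257877-41258077: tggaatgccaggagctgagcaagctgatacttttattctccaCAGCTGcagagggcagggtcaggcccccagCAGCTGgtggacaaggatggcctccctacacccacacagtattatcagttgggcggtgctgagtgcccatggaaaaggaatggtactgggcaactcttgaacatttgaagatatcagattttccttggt
The Vldlr region had a strong peak in every DM library and in no GM library. The Gpt2 and Sepsecs regions had one in every DM +dox library and in no GM +dox library. Alox5ap is shown as one of the 5 E-box regions with the highest mean fold enrichment, open in every library.
Vldlr, chr19:27173904-27174104: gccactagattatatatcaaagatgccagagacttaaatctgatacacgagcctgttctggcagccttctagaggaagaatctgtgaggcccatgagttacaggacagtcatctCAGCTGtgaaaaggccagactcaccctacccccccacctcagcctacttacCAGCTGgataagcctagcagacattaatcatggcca
Gpt2, chr8:85501149-85501349: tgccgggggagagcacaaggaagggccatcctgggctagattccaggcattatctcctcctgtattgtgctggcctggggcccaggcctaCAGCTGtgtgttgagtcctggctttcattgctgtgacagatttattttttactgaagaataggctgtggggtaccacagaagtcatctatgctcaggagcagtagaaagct
Sepsecs, chr5:52616621-52616821: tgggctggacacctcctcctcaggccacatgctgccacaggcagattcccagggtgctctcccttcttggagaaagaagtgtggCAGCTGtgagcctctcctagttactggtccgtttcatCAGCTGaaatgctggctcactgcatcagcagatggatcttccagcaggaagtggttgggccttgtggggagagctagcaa
Alox5ap, chr5:149229067-149229267: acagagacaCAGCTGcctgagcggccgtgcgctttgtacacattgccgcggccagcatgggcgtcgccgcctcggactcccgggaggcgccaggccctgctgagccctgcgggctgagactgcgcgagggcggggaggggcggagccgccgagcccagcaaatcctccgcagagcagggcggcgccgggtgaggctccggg
The last 3 lie within 5 kb of a muscle gene or of an inhibitor of MyoD1 from the gene lists described below.
Id3, chr4:136140408-136140608: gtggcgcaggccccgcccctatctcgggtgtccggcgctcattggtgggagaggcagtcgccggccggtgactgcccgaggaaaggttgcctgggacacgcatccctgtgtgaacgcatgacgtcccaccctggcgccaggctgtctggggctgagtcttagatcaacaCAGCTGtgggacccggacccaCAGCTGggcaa
Cdh15, chr8:122851771-122851971: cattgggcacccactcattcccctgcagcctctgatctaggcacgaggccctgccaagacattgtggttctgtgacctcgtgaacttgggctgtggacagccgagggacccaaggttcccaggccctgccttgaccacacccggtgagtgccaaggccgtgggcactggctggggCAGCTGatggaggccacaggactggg
Chrne, chr11:70622065-70622265: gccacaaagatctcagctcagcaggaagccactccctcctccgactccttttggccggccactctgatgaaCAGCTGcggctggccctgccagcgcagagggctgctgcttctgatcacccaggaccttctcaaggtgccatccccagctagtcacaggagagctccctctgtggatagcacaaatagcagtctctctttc

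Since the rule asked for the hexamer within 100 bp of the summit, its distance was limited by the choice and is a description only. Its centre, or that of the nearest copy, was at a median of 40.5 bp from the summit (interquartile range 19.5 to 67.5). Among the regions with 1 copy the median was 44.5 bp and 27.9% had it within 25 bp, against 49 bp and 25.5% for even placement in the window, so that within the window the hexamer was only slightly nearer to the summit. Over all 15878 distal regions, CAGCTG was found in 3.04% of regions per 20-bp bin at the summit and in 1.12% at 300 to 500 bp from it, a ratio of 2.70. The AP-1 heptamer was more concentrated over the same regions, at 6.47% at the summit and 0.448% in the flank, a ratio of 14.4. Of all 26213 union windows 18.7% held CAGCTG and 29.2% the AP-1 heptamer.

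**Figure D1:**
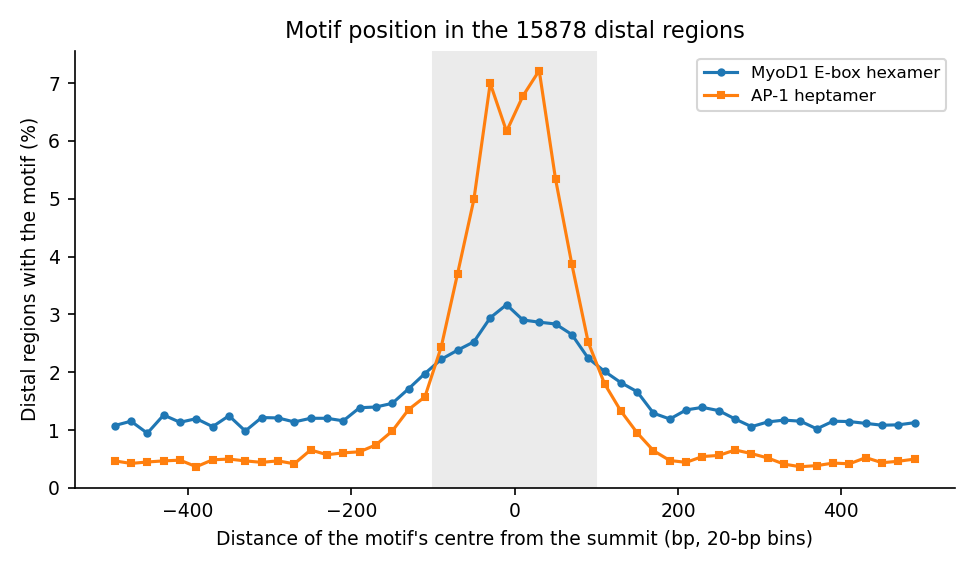
Percent of the 15878 distal regions with a motif centre in each 20-bp bin (vertical axis) against distance from the summit in bp (horizontal axis), for CAGCTG and for TGACTCA or TGAGTCA; the grey band is the 100-bp window of the rule. The CAGCTG line peaks at the summit, where the central bins have a mean of 3.04% over a flank of 1.12%. The AP-1 line has a mean of 6.47% there over a flank of 0.448%. It is higher in the bins centred at −30 and 30 bp, up to 7.22%.

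The bases beside the hexamer also differed between summits and flanks. Of the 4286 CAGCTG copies within 100 bp of a distal summit, 9.05% had a G before and a C after (GCAGCTGC), against 6.37% of the 3593 copies at 300 to 500 bp, a ratio of 1.42. ACAGCTGC, counted with its reverse complement, followed at 15.96% against 12.5%, a ratio of 1.27. TCAGCTGA was the least favoured of the 10 forms, with 3.24% near and 4.45% far, a ratio of 0.728. These are descriptions of copy counts over regions that also share composition: the median GC content of the E-box windows was 53.2%, against 49.3% in AP-1 regions.

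Most E-box regions held a single copy. 1846 had 1 CAGCTG, 312 had 2, 39 had 3 and 9 had 4 or more. Their median width was 549 bp and the median distance to a transcript start 11.4 kb. The summit lay in an intron in 1215 (55.1%), in an exon in 125 (5.67%) and between genes in 866 (39.3%), close to the shares of AP-1 regions (55.3%, 3.89% and 40.8%).

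Other motifs were searched on both strands of the same 201-base windows. Each is given as the percent of E-box regions, of the other distal regions and of all 26213 union windows with a match, and the last of these includes 10335 promoters. CAGGTG, another E-box that MyoD1 binds, was found in 9.97%, 8.51% and 8.64%, CATCTG, an E-box form, in 19.9%, 21.0% and 15.6%, and CACGTG in 3.54%, 3.39% and 5.21%. TTGGCA, 1 arm of the NFI site, was found in 23.8%, 19.5% and 15.5%, and TGTGGTT, the RUNX site, in 14.4%, 13.6% and 9.66%. GGAATG, the M-CAT element of muscle promoters bound by TEAD factors, was found in 22.7%, 21.8% and 17.0%. The other sites of muscle factors were rare, the MEF2 decamer at 0.589%, 0.651% and 0.50% and the CArG box at 1.04%, 1.28% and 1.14%. Higher in E-box regions than in the other distal regions were GGGCGG for SP factors at 10.4%, 7.76% and 28.5%, CCACCC for KLF factors at 23.6%, 19.5% and 22.8%, and TGACGTCA at 1.18%, 0.534% and 1.55%. CCGGAAG for ETS factors was at 1.41%, 1.36% and 6.94%, TGATTGAC for PBX with MEIS at 0.181%, 0.439% and 0.443%, and TTCNNNGAA for STAT factors at 5.62%, 6.41% and 5.31%.

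E-box regions were open in fewer libraries than regions with AP-1. An E-box region had a strong peak, meaning one among the 14710 strongest of its library, in a median of 5 of the 14 libraries, against 6 for AP-1 regions and 7 for regions with both motifs. 321 (14.6%) had one in all 14 and 499 (22.6%) in a single library. By medium, 479 (21.7%) had strong peaks in DM libraries alone and 384 (17.4%) in GM libraries alone. AP-1 regions were the other way round, with 595 (11.1%) in DM alone and 1266 (23.6%) in GM alone. By dox, 422 E-box regions (19.1%) were seen in +dox libraries alone and 301 (13.6%) in libraries without dox alone, against 530 (9.87%) and 965 (17.96%) of AP-1 regions. GM gave 8 libraries and DM 6, so the first count rests on fewer libraries.

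The share of open distal regions that were E-box regions was lowest in GM no dox and highest in DM +dox. The number of distal regions with a strong peak ranged from 6488 to 8445 per library. The share was 12.02%, 11.02%, 11.2% and 11.97% in the 4 GM no dox libraries, a mean of 11.6% ± 0.514 (SD, n = 4). With dox in GM the libraries gave 12.8%, 12.6%, 12.4% and 14.7%, a mean of 13.1% ± 1.04 (SD, n = 4). All 4 lay above every GM no dox library, and replicate 4 stood highest. In DM no dox the values were 13.7%, 12.7% and 14.9% (13.8% ± 1.10, SD, n = 3). In DM +dox they were 16.6%, 14.7% and 17.2% (16.2% ± 1.31, SD, n = 3).

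Dox was accompanied by a higher share in both media, by 1.57 percentage points in GM without overlap of the groups and by 2.43 in DM, where DM +dox replicate 3 lay below the highest DM no dox library. Between GM and DM the share was higher by 2.19 points without dox and by 3.05 with dox, in both cases without overlap, although with dox the gap was only 0.0391 points. Every same-numbered pair of libraries differed in the same direction (4 of 4 for dox in GM and 3 of 3 for each of the others). Within replicates 1 and 2 alone the 4 differences were 1.19, 2.90, 2.17 and 3.89 points, and within replicates 3 and 4 they were 1.96, 2.19, 2.19 and 2.42. In the first set each DM group was represented by replicate 2 alone, since its replicate 1 had been left out. The size of the differences depended on taking lists of equal length. When all deposited peaks were counted, the share differed by 0.201 points between the DM groups, by 1.20 between GM and DM without dox and by 0.326 between them with dox. The longer deposited lists of DM +dox move with the dox difference in DM, and their part was not tested further.

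**Figure D2:**
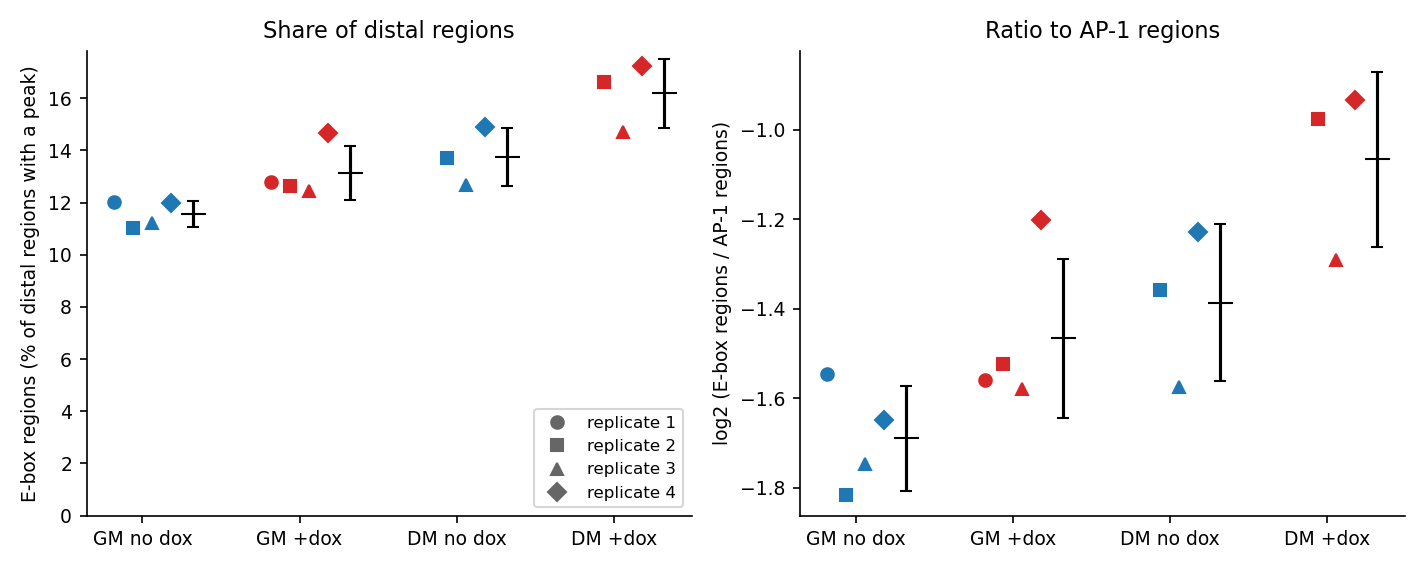
Left, E-box regions as a percent of distal regions with a strong peak; right, log2 of the number of E-box regions over AP-1 regions with a strong peak; points are the 14 libraries by group, bars are means and SD. The share runs from 11.02% in a GM no dox library to 17.2% in a DM +dox library, and the log2 ratio from −1.81 to −0.93.

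Set against AP-1 regions, the E-box regions differed between groups in the same order with more overlap. The log2 ratio of open E-box regions to open AP-1 regions was −1.55, −1.81, −1.75 and −1.65 in GM no dox and −1.56, −1.52, −1.58 and −1.20 in GM +dox. In DM no dox it was −1.36, −1.58 and −1.23, and in DM +dox −0.98, −1.29 and −0.93. The means differed with dox by 0.22 in GM and by 0.32 in DM, and between GM and DM by 0.30 without and 0.40 with dox, and the groups overlapped in each of the 4. In counts, 39.9% ± 3.49 of E-box regions had a strong peak in GM no dox, 45.6% ± 3.63 in GM +dox, 45.1% ± 2.15 in DM no dox and 52.2% ± 6.88 in DM +dox. For AP-1 regions these were 52.7% ± 3.51, 52.0% ± 7.47, 48.5% ± 4.68 and 44.8% ± 4.46 (SD, n = 4, 4, 3 and 3). Regions with both motifs had a higher share in DM than in GM, with 9.34% ± 0.546 in GM and 10.8% ± 0.460 in DM without dox and 10.02% ± 0.429 and 11.5% ± 0.422 with dox, with no overlap in either.

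**Figure D3:**
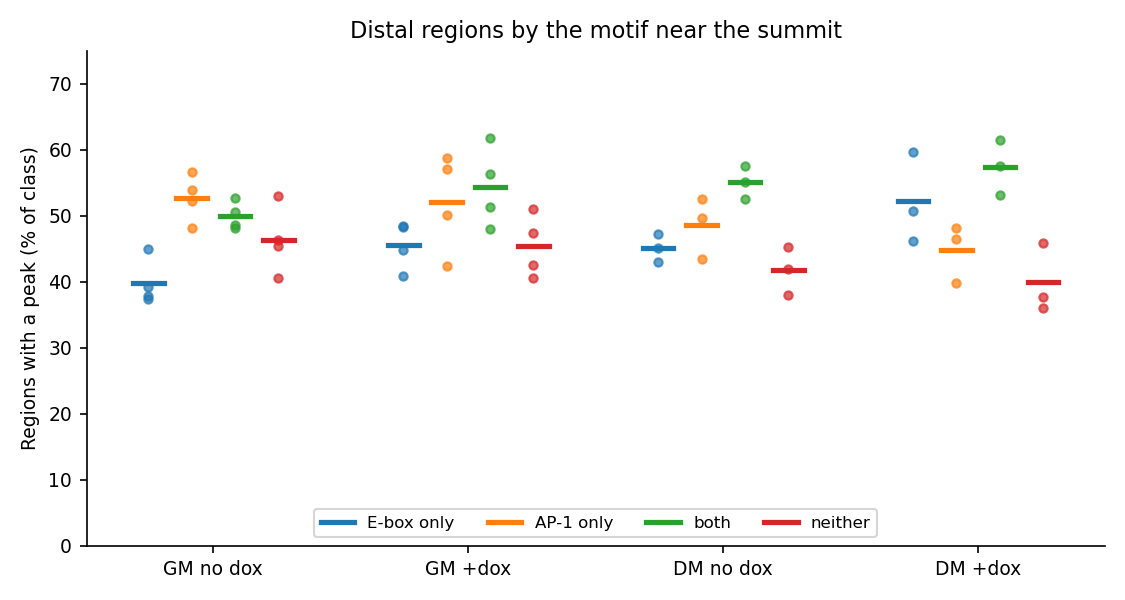
Percent of the regions of each distal motif class with a strong peak (vertical axis) in the 4 groups (horizontal axis). Points are libraries and short horizontal lines are means. E-box regions go from 39.9% in GM no dox to 52.2% in DM +dox, whereas AP-1 regions go from 52.7% to 44.8%.

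E-box regions with a second CAGCTG, with CAGGTG or with TTGGCA stood out most in DM +dox. Those with 2 or more copies of CAGCTG (360 regions) had a strong peak in 35.0% ± 1.32 of cases in GM no dox and in 60.0% ± 10.2 in DM +dox, against 40.8% ± 3.93 and 50.7% ± 6.24 of those with 1 copy. The value did not rise further with copies. In DM +dox it was 61.2% for 2 copies (312 regions), 53.0% for 3 (39) and 48.1% for 4 or more (9). The 220 E-box regions that also held CAGGTG went from 33.4% ± 4.82 in GM no dox through 41.7% ± 4.37 in GM +dox and 43.8% ± 2.78 in DM no dox to 63.2% ± 6.12 in DM +dox. Without CAGGTG the corresponding values were 40.6%, 46.0%, 45.2% and 51.0%. The 2 sets shared 39 regions. AP-1 regions with CAGGTG (492) also stood highest in DM +dox, at 50.8% against 43.3% in GM no dox, 41.3% in GM +dox and 44.0% in DM no dox, so this was not confined to E-box regions. The 526 E-box regions with TTGGCA, which is not an E-box, went from 37.2% ± 3.75 in GM no dox to 58.1% ± 9.05 in DM +dox. These 3 splits were followed after the values of all motifs had been seen and carry no test.

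Regions gained or lost in every library give the same comparison one region at a time. A region counted as gained when every library of the first group had it among its strongest peaks and no library of the second did. Many such regions had a weaker deposited peak in the other group, so that they describe a rank and not an absence. For dox in GM, 10 E-box regions were gained and 3 lost, of 1727 with a strong peak in either group (0.579% and 0.174%), against 0.163% and 0.124% of all union regions. For dox in DM, 37 were gained and 15 lost (2.03% and 0.823% of 1822), against 0.824% and 0.787% of all. For differentiation without dox, 44 were gained and 17 lost (2.47% and 0.953%), against 0.984% and 1.04%. For differentiation with dox, 56 were gained and 18 lost (2.94% and 0.945%), against 1.11% and 1.1%. The E-box regions exceeded the background among the gained in all 4 comparisons, whereas among the lost they were near it, except for dox in GM, where 3 regions are too few to read. That background includes promoters, and the other distal regions alone gave 0.193%, 1.004%, 1.21% and 1.27% gained and 0.142%, 1.27%, 1.51% and 1.62% lost in the same order. Regions with both motifs were gained at 0.333%, 1.58%, 2.12% and 2.005% and lost at 0.0833%, 0.914%, 1.14% and 0.642%. AP-1 regions had the opposite balance in DM, with 33 gained and 51 lost for dox and 39 gained and 85 lost for differentiation with dox.

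**Figure D4:**
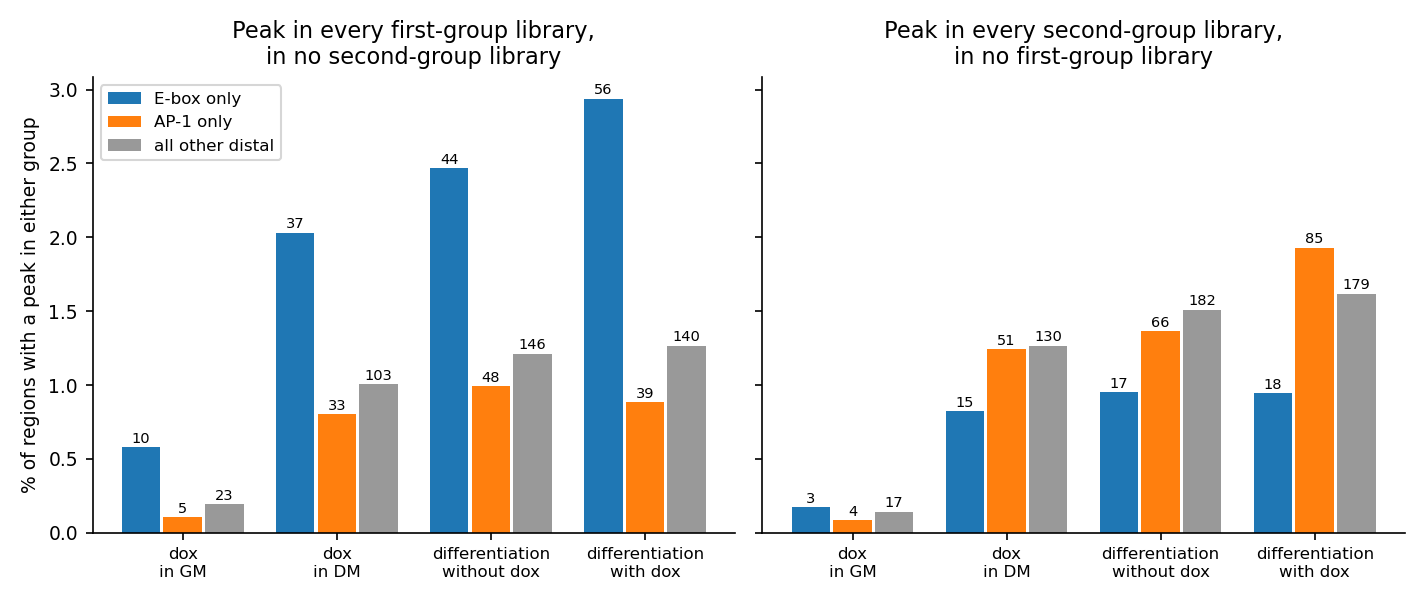
Percent of regions with a strong peak in every library of one group and in none of the other (vertical axis), gained on the left and lost on the right, by comparison and motif class. Gained E-box regions reach 2.94% for differentiation with dox and lost ones 0.945%, beside 0.885% and 1.93% of AP-1 regions.

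Regions chosen in one comparison could be looked up in libraries that had no part in the choice. The 10 regions gained with dox in GM had a strong peak in 73.3% of cases in DM +dox and in 36.7% in DM no dox. The 37 gained with dox in DM had one in 37.8% of cases in GM +dox and in 14.9% in GM no dox. 1 region was in both gained sets (10% of the first and 2.70% of the second), and none in both lost sets. Among other distal regions 2 were in both gained sets (8.70% and 1.94%) and again none in both lost sets. Other distal regions chosen the same way gave similar values, 53.6% against 26.1% and 49.8% against 28.6%, so the carry-over was not particular to E-box regions. The 44 gained in DM without dox were strong in 77.3% of cases in DM +dox and in 26.1% in GM +dox. The 56 gained in DM with dox gave 50% in DM no dox and 7.14% in GM no dox, and the sets shared 9 regions (20.5% of the 44 and 16.1% of the 56). Other distal regions gave 58.0% against 15.1% and 55.5% against 11.4%, with 23 shared (15.8% of 146 and 16.4% of 140), so that here too the carry-over was not particular to E-box regions.

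Copies of the hexamer were counted in the same sets. Of the 56 regions gained in DM with dox, 21 (37.5%) had 2 or more CAGCTG, as did 11 of 37 (29.7%) gained with dox in DM and 12 of 44 (27.3%) gained in DM without dox, against 16.3% of all E-box regions. Of the 18 lost in DM with dox 1 did, and of the 15 lost with dox in DM none. None of the 10 gained with dox in GM had a second copy.

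Among the regions gained with dox in GM, those of highest −log10 p lay in an intron of Agap1, a GTPase-activating protein of the Arf family, in an intron of Hsf1, the heat shock transcription factor, and 35.4 kb from Cd44, the hyaluronan receptor. At Hsf1 (chr15:76485208-76485587) the fold enrichment was 17.9, 16.3, 13.6 and 11.6 in GM +dox, whereas in GM no dox replicate 1 had no peak and the others were at 8.84, 6.17 and 9.42. In DM it was 8.22, 6.68 and 12.8 without dox and 24.4, 16.7 and 18.6 with dox, so that the groups did not overlap in either medium. At Agap1 (chr1:89538381-89539066) the GM +dox values were 15.5, 21.2, 14.03 and 15.2, against no peak in replicates 1 and 3 and 10.4 and 10.8 in replicates 2 and 4 without dox. In DM all 6 libraries had a strong peak there, at 8.97 to 21.9. The region near Cd44 (chr2:102936933-102937352) gave 19.6, 19.3, 11.3 and 10.5 with dox and no peak, 10.4, 3.85 and 12.0 without, so its fold enrichments overlapped even though its ranks did not. Of the regions lost with dox in GM, those near Cacna2d3 and Heg1 still had peaks of 8.05 to 14.04-fold in GM +dox.

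In DM the leading gained regions with dox lay in introns of Ptpre, a receptor-type tyrosine phosphatase, and of Ubap2, and near Azin1, which stabilises the enzyme of polyamine synthesis. At Ubap2 (chr4:41257611-41258247) the fold enrichment was 6.85, 5.95 and 9.81 in DM no dox and 23.0, 13.4 and 16.5 in DM +dox. In GM it was listed without dox in replicates 2 and 4 alone, at 10.7 and 6.44, and with dox at 13.0, 18.3, 12.4 and 12.2. At Ptpre (chr7:135551546-135551920) DM no dox replicate 4 had a peak of 12.3-fold and the other 2 libraries had none, against 24.3, 17.5 and 14.8 with dox. Both therefore also stood higher in every GM +dox library except at Ptpre, where GM +dox replicate 4 (11.9) lay below GM no dox replicate 4 (12.4). The leading lost regions were near Plod2, Usp44 and Fgf18. Their fold enrichments overlapped between DM groups at Plod2 and Fgf18, and at Usp44 they were 10.5, 12.4 and 12.5 without dox and 7.36, 10.3 and 8.56 with dox.

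Regions gained between GM and DM without dox were led by those near Vldlr, a lipoprotein receptor, Il12b and Gm26897. At Vldlr (chr19:27173710-27174274, in an intron of AC118724.1) DM no dox gave 12.0, 10.1 and 11.3 and DM +dox 14.1, 11.2 and 11.3. GM no dox had peaks in replicates 2 and 4 alone (11.4 and 7.54), and GM +dox stood at 7.04, 7.30, 3.53 and 6.64. With dox, the gained set was led by regions in an intron of Gpt2, a mitochondrial alanine aminotransferase, near Sepsecs, an enzyme of selenocysteine synthesis, and near Txn2, mitochondrial thioredoxin. The Gpt2 region (chr8:85500875-85501617) had no peak in GM +dox replicate 3 and 5.14, 8.05 and 5.58 in the other GM +dox libraries, against 14.8, 14.1 and 13.1 in DM +dox. It had a peak in 1 GM no dox library (6.22) and gave 6.72, 5.59 and 11.3 in DM no dox. At Sepsecs (chr5:52616312-52616928) the GM +dox values were 8.78, 8.74, 6.54 and 7.37 and the DM +dox values 21.1, 15.8 and 19.5. The lost set with dox was led by regions near Otud4, Chst15 (in an intron of Fgfr2) and Rpusd4, and that without dox by regions near Pdk4, Sema7a and the region in an intron of Megf10 described next.

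Peak height was tested at the regions that had a deposited peak in all 14 libraries, 11011 in all and 712 of the E-box regions. These are the most widely open 32.3% and say nothing of regions that appeared or vanished. limma was run on quantile-normalised log2 fold enrichment, and a region was called at a Benjamini-Hochberg adjusted p under 0.05 over all 11011. Between GM and DM without dox, 2 E-box regions rose and 3 fell, 0.702% of the 712, while 0.318% of all regions tested were called (4 higher and 31 lower). With dox, 1 rose and 1 fell, 0.281%, against 0.0727% of all (1 and 7). For dox (in GM, in DM or averaged over both media) and for the interaction of dox and medium, no E-box region was called by limma, and 0% of all regions were. At an unadjusted p under 0.05, dox in GM held 43 higher and 22 lower E-box regions (9.13% of the 712, against 6.08% of all regions) and dox in DM 36 and 18 (7.58% against 6.82%). Dox averaged over both media held 63 and 35 (13.8% against 10.95%), and the interaction 13 and 9 (3.09% against 2.51%).

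A second fit took the replicate number as a block, although the labels do not say whether same-numbered libraries share a culture or day. With this block, limma called 14 higher and 7 lower E-box regions between GM and DM without dox, against 1.34% of all regions. With dox it called 1 higher and 2 lower, against 0.3%. For dox averaged over both media it called 9 higher and 1 lower, against 0.799% of all. In that block fit no E-box region was called for dox in DM (0.0636% of all regions were), for dox in GM (0%) or for the interaction (0%). At an unadjusted p under 0.05 it held 53 higher and 34 lower E-box regions for dox in DM (12.2%, against 11.1% of all regions), 62 and 39 for dox in GM (14.2% against 10.4%) and 20 and 22 for the interaction (5.90% against 4.77%). On ranks in lists of equal length, which also admitted regions with strong peaks in as few as 3 libraries, 32 of 1464 E-box regions rose and 14 fell without dox, where 1.58% of all regions were called, and 54 rose and 10 fell with dox, where 1.76% were.

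The strongest call was in an intron of Arid3a (chr10:79934275-79934775), which encodes a factor that binds AT-rich DNA, and whose window holds 2 CAGCTG copies. Its fold enrichment was 3.51, 7.21, 3.91 and 4.69 in GM no dox, 8.90, 8.75, 5.91 and 6.62 in GM +dox, 7.94, 9.12 and 10.5 in DM no dox and 15.8, 10.8 and 12.4 in DM +dox. Every DM library lay above every GM library of the same dox treatment. On the normalised log2 scale it rose by 1.04 ± 0.15 (SE) without dox (limma adjusted p = 0.00954) and with dox its difference was 0.62 ± 0.15 (adjusted p = 0.160). The second region that rose without dox lay between genes, 320 kb from Adgrl4, an adhesion receptor gene (chr3:151116946-151118150). It went from 4.52, 9.22, 6.68 and 7.83 to 14.7, 9.29 and 14.6, a normalised change of 0.85 ± 0.15 (limma adjusted p = 0.0264). With dox it was 11.9, 11.9, 10.8 and 9.56 in GM and 18.7, 12.1 and 14.9 in DM, and the difference of 0.26 ± 0.15 did not pass (adjusted p = 0.736).

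The region that rose with dox lay in an exon of Npepps, a cytosolic aminopeptidase (chr11:97206976-97207605). Its fold enrichment was 8.07, 8.74, 8.35 and 5.41 in GM +dox and 15.4, 16.1 and 13.9 in DM +dox, with no overlap, a normalised change of 0.82 ± 0.15 (limma adjusted p = 0.0422). Without dox it was 5.63, 11.2, 6.17 and 7.88 in GM and 11.4, 9.37 and 13.3 in DM, where the difference of 0.53 ± 0.15 passed with the replicate block alone (0.58 ± 0.14, adjusted p = 0.0489) and not in the fit without it (adjusted p = 0.159).

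A region in an intron of Megf10, a receptor that acts in muscle satellite cells (chr18:57249451-57250053, nearest transcript start that of Prrc1), fell in both arms. It stood at 9.40, 17.5, 8.13 and 12.5 in GM no dox and at 5.36, 5.55 and 8.41 in DM no dox, and fell by 0.94 ± 0.18 on the normalised scale (limma adjusted p = 0.0278 for Prrc1). With dox it went from 15.1, 13.8, 11.8 and 9.20 to 5.66, 4.42 and 6.52 and fell by 1.13 ± 0.18 (adjusted p = 0.0117 for Prrc1). It was among the strongest peaks in all 8 GM libraries and in no DM library. The region nearest to Pdk4, a kinase that shuts off pyruvate dehydrogenase, fell from 7.99, 16.5, 9.23 and 15.8 to 7.19, 5.20 and 11.7 without dox, by 0.73 ± 0.15 (limma adjusted p = 0.0470).

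The remaining call lay 16.3 kb from Errfi1, an inhibitor of the EGF receptor, in an intron of Gm13049 (chr4:150836983-150837860). Without dox its fold enrichment was 8.43, 14.6, 9.47 and 13.7 in GM and 7.26, 5.95 and 7.71 in DM, and it fell by 0.76 ± 0.14 (limma adjusted p = 0.0264). With dox it was 11.1, 12.2, 11.3 and 10.98 in GM and 16.1, 13.5 and 12.5 in DM, a difference of 0.11 ± 0.14 (adjusted p = 0.915). The difference between the 2 arms, 0.88 ± 0.19, did not pass the correction (limma interaction, adjusted p = 0.999). The regions at Arid3a, Adgrl4, Pdk4 and Errfi1 were called without dox and not with dox, and the interaction was called for none of the 6.

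How far these calls rested on single libraries differed between regions. Leaving out each of the 14 libraries in turn, the Arid3a region stayed called in all 14 fits (limma adjusted p 0.00635 to 0.0498). The Adgrl4 region stayed called in 11 (up to 0.0892, lost without DM no dox replicate 2 or GM no dox replicate 1 or 2). The Megf10 intron region stayed called in 10 fits for each arm. It was lost without dox when DM no dox replicate 2 or 3 or GM no dox replicate 1 or 2 was left out (up to 0.112 for Prrc1), and with dox when DM +dox replicate 2 or 3 or GM +dox replicate 1 or 3 was left out (up to 0.160). The Errfi1 region stayed called in 9 (up to 0.0823), and was lost without DM no dox replicate 3 or 4 or GM no dox replicate 1, 2 or 3. The Pdk4 region stayed called in 3 of the 14 fits (up to 0.206), namely those without GM +dox replicate 1 or 4 or DM no dox replicate 4. The Npepps region stayed called in 2 (up to 0.284), those without GM no dox replicate 1 or 4. None of the 7 calls changed direction in any of these fits.

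**Figure D5:**
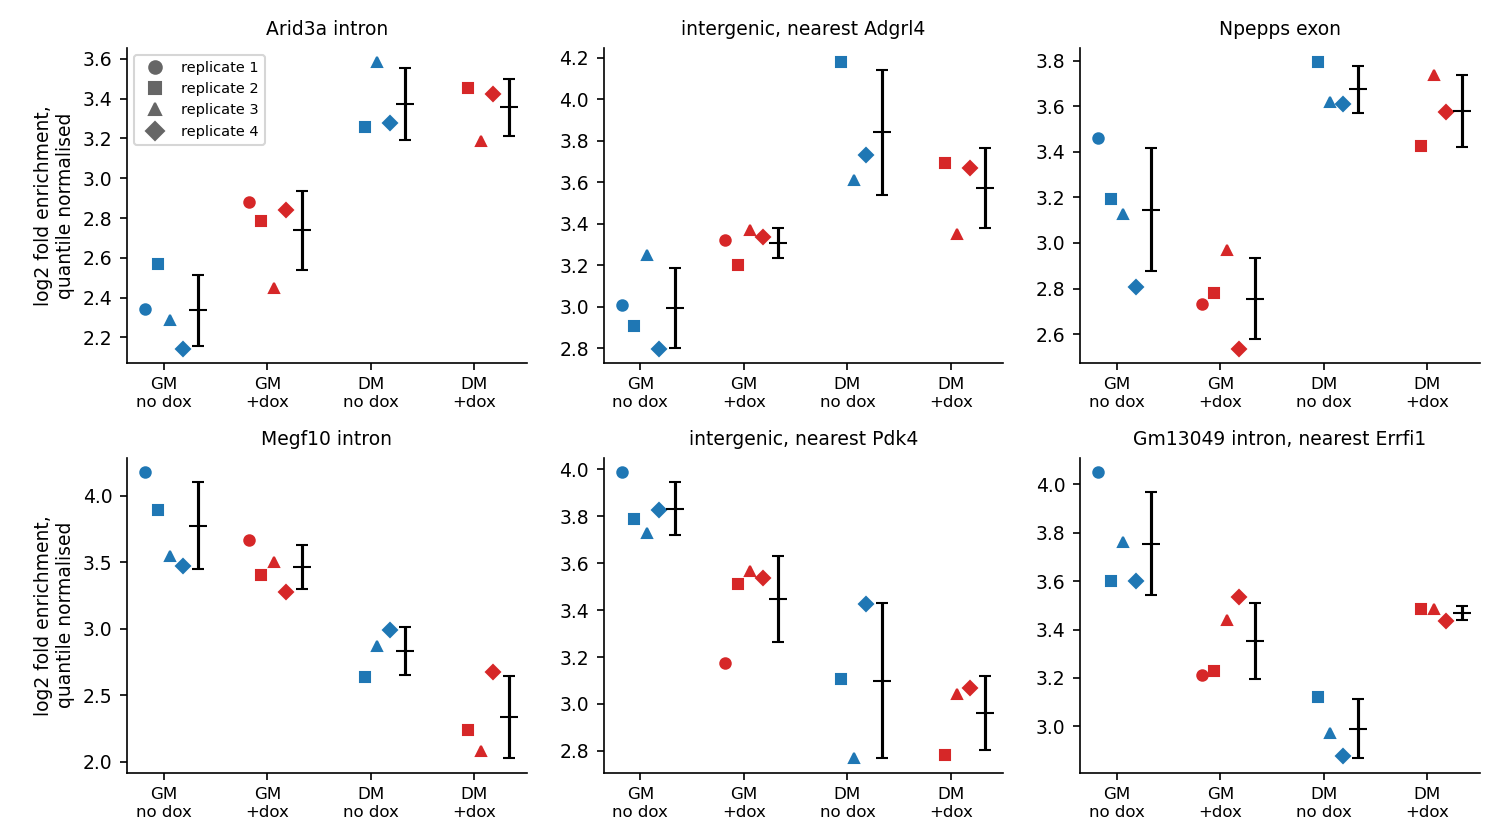
Quantile-normalised log2 fold enrichment (vertical axes, which do not start at 0) of the 6 E-box regions called by limma, named by nearest gene, in the 14 libraries by group (horizontal axes); points are libraries and bars are means. The Arid3a, Adgrl4 and Npepps regions stand higher in DM libraries, and the Megf10 intron (Prrc1) region lies lower in all DM libraries.

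Over all 712 tested E-box regions, the size of the difference in height from other distal regions depended on the measure. Their median log2 fold enrichment minus that of the other distal regions was −0.081, −0.087, −0.078 and −0.11 in GM no dox and −0.075, −0.086, −0.076 and −0.00081 in GM +dox. In DM no dox it was 0.010, −0.024 and −0.0033, and in DM +dox 0.013, −0.011 and 0.029. The difference between GM and DM was 0.083 without dox, where the groups did not overlap, and 0.070 with dox, where they did because of GM +dox replicate 4. For dox it was 0.029 in GM and 0.016 in DM, each with overlap and no larger than the spread between libraries. On log2 of −log10 p in place of fold enrichment the 4 differences were larger, at 0.14 without dox and 0.20 with dox between GM and DM, and at 0.10 in GM and 0.17 in DM for dox. The normalised differences of the E-box regions had medians near 0 in every contrast (−0.010 to 0.0086), as had those of all regions tested (−0.0099 to 0.014), which include promoters. The other distal regions alone had lower medians in the contrasts of medium and dox. These were −0.047 without dox and −0.044 with dox between GM and DM. For dox they were −0.031 in GM, −0.026 in DM and −0.025 averaged, and for the interaction 0.0032.

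The E-box regions of highest mean fold enrichment were open in every library. They lay near Alox5ap, which presents substrate for leukotriene synthesis, near Kif21a, a kinesin, and in introns of Rabgap1l, Dpys and Pde10a. At Alox5ap (chr5:149228946-149229518) the values were 8.42, 23.6, 14.7 and 25.9 in GM no dox, 25.5, 23.6, 22.7 and 17.97 in GM +dox, 13.8, 17.9 and 23.2 in DM no dox and 28.8, 23.4 and 24.5 in DM +dox. The lowest was from GM no dox replicate 1, whose list was the shortest. The 2206 regions had 1735 different nearest genes, of which 1398 had 1 region and 97 had 3 or more. Gse1 had most, with 8 over 255 kb, followed by Gm26897 with 6 and by Bcar3, Gadd45g, Kirrel3 and Zmiz1 with 5 each, a selection made after the counts were seen.

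Genes of the muscle programme were looked up for E-box regions in the gene or within 100 kb of a start. 7 of 13 myogenic regulators had one, as had 7 of 10 inhibitors of MyoD1, 10 of 16 fusion and adhesion genes, 5 of 9 acetylcholine receptor and synapse genes, 6 of 10 cell cycle exit genes and 4 of 8 AP-1 genes. Of 27 contractile genes 8 had one. Among all 21728 protein-coding genes the figure was 4961 (22.8%), so that contractile genes (29.6%) were closest to the background. Myog, Myf5, Myf6 and Pax7 had none, and Myod1 had 1 at 34.8 kb from its start. The lists held 69 different E-box regions, of which 21 had a peak in all 14 libraries and were tested. limma called none of the 21 in either direction in any contrast, while 10 of them had an unadjusted p under 0.05 in at least 1 of the 6 contrasts. On ranks, where 1.58% of all regions were called without dox and 1.76% with dox, 4 of 44 were called. The regions near Ube2v1 and Iqcn rose between GM and DM in both arms, and those near Speg and Ifitm10 fell without dox. With the replicate block limma called 2 of the 21. Of all regions tested, that fit called 1.34% between GM and DM without dox and 0.799% for dox averaged over both media. The region near Ifitm10, listed with the contractile genes, fell by 0.64 ± 0.14 without dox (limma adjusted p = 0.0291). The region near Usp2, listed with the fusion and adhesion genes, rose by 0.40 ± 0.089 for dox averaged over both media (limma adjusted p = 0.0420).

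By role, the regions of the lists behaved as follows. Near regulators, the region 3.96 kb from Mef2d stayed between 3.54 and 7.73 wherever it had a peak. Near inhibitors, the region 2.99 kb from Id3, which keeps E proteins from MyoD1, had a strong peak in 12 libraries at 7.01 to 10.9. A second region near Id3, closer to E2f2 (chr4:136164988-136165442), was lost in DM with dox, at 13.2, 14.3, 11.3 and 10.9 in GM +dox and 12.4, 10.8 and 9.97 in DM +dox, which overlap.

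Near adhesion genes, the region 3.905 kb from Cdh15, M-cadherin (chr8:122851575-122852238), was lost in DM without dox. It was at 4.23, 10.1, 4.88 and 8.42 in GM no dox and at 5.18, 4.61 and 4.50 in DM no dox, so its fold enrichment overlapped while its rank did not. With dox it was at 9.74, 10.9, 7.83 and 7.25 in GM and at 9.48, 5.50 and 5.85 in DM. The region 14.2 kb from Mymx, a micropeptide needed for fusion, was among the strongest in 1 library only. Near synapse genes, the region 2.95 kb from Chrne, the adult acetylcholine receptor subunit (chr11:70621879-70622741), was listed in 2 of 4 GM no dox libraries (9.27 and 8.80), at 13.2, 9.85, 9.17 and 9.94 in GM +dox, at 8.66 and 12.4 with 1 library without a peak in DM no dox, and at 14.6, 13.2 and 15.3 in DM +dox. In DM every +dox value lay above the listed values without dox, whereas in GM replicate 3 did not.

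Near cell cycle genes, the region 7.60 kb from Btg2, an antiproliferative gene (chr1:134071371-134071879, 2 hexamers), had a peak in 1 GM no dox library (8.49) and in all GM +dox libraries (14.1, 13.1, 10.3 and 8.70). In DM it went from no peak, 5.72 and 12.0 to 14.7, 10.5 and 14.3 with dox. Near contractile genes, the region in an intron of Myl4, an embryonic myosin light chain (chr11:104561106-104561251), had no peak in GM no dox and 15.0, 12.1, 9.83 and 11.5 in GM +dox. In DM it was listed in 1 library without dox (7.99) and at 15.2, 13.3 and 9.04 with dox. Of these peaks 1, that of GM +dox replicate 4, was among the strongest of its library. Near AP-1 genes, the region in an exon of Iqcn, 11.7 kb from Jund (chr8:70710215-70711000), was strong in all 14 libraries, at 4.81, 17.1, 6.20 and 13.4 in GM no dox and 13.2, 14.2 and 16.1 in DM no dox. With dox it was at 16.8, 19.1, 11.3 and 12.6 in GM and at 20.0, 16.5 and 17.6 in DM, so its fold enrichments overlapped in both arms. Its ranks by −log10 p in the deposited lists did not overlap. They were 6718 to 11903 in GM and 562 to 904 in DM without dox. With dox they were 4147 to 10636 in GM and 311 to 1241 in DM. The longer lists of the +dox groups move with the values at Chrne, Btg2 and Myl4, and their part in a peak being listed was not tested. In DM so does the median fold enrichment over all peaks of a library, although the groups overlapped. It was 10.5, 9.43 and 9.15 in DM +dox and 8.50, 7.94 and 9.40 in DM no dox, and its part was not tested either.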

How the data were processed

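ATAC-seq peak lists of 16 libraries were used, 1 per library. The authors ran the nf-core/atacseq pipeline against mm10, and made a list of narrow peaks for every library on its own with MACS2, after removing blacklisted regions. The MACS2 version is not given in the sources used here. Each deposited list gives a fold enrichment over local background (a ratio), the −log10 of a p-value and of a q-value, a display score that was not used, and a summit. Without read counts, no count-based test was run. The lowest deposited −log10 q was 1.30, and no 2 lists were identical.

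Lists were limited to the 14710 peaks of highest −log10 p, which is as many as the shortest of the kept lists holds, with ties (up to 14 in a list) resolved by fold enrichment and then position. Overlapping peaks (at least 1 bp) were merged. Motifs were read from GRCm38 with pysam 0.24.0 and genes from GENCODE M21. Members and gene lists were chosen with earlier results of these data known. Regions with a deposited peak in every kept library were tested with limma 3.58.1 in R 4.3.3 (Python 3.11.15 otherwise) on quantile-normalised log2 fold enrichment, 4 group means in 1 fit, two-sided, without trend or robust options; the test was run on simulated data first. Scores over the E-box regions carry no test. Background coverage was solved from the fold enrichment and p of peaks with −log10 p under 30, by finding the whole pileup that gives both (all solved peaks within 0.001 of the deposited −log10 p); it is the lowest background in a list and was tested on simulated data.

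The deviations of same-numbered libraries from their group means, over 11011 regions, correlated at 0.106 to 0.465 for all 13 pairs in the 4 comparisons. A fit with the replicate number as a block is therefore given where it moves a count. Differently numbered libraries were not correlated, so these values do not show that the number is a pairing. Named regions were up to 3 called per contrast and direction, up to 3 gained or lost per comparison and direction by −log10 p, the 5 of highest mean fold enrichment, and up to 3 per gene list nearest to a start. The regions near Ube2v1, Speg, Usp2 and Ifitm10 and the genes with most regions were named after their values were seen. Some regions that met this rule are not reported here.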

Additional observations from a re-analysis of the deposited data

Results flagged for a closer look

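GM +dox replicate 4 stood apart from the other 3 libraries of its group in each of the 3 scores over the E-box regions. Its E-box share of distal regions was 14.7% where the others had 12.4% to 12.8%, its log2 ratio to AP-1 regions was −1.20 where the others had −1.58 to −1.52, and its median log2 fold enrichment relative to other distal regions was −0.00081 where the others had −0.086 to −0.075. The gap exceeded Dixon's 95% critical value each time. Chance flags about 1 in 20 groups, and the 3 scores are computed from the same peaks. Without it the share difference for dox in GM was 1.06 points.

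The DM replicates left out of the comparisons still gave an E-box share. DM no dox replicate 1 had 80 E-box regions among 495 distal regions with a peak, 16.2% (Wilson 95% interval 13.2 to 19.7), and DM +dox replicate 1 had 1037 of 6488, 15.98% (15.1 to 16.9). The intervals cover counting error only, and both lists are shorter than the 14710 peaks used in the kept libraries.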

How the results depend on the processing

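All 39 alternatives of the E-box share and all 39 of the ratio to AP-1 regions kept their sign. Of these, 32 and 35 moved by less than 1 SD between libraries. All deposited peaks, and peaks with −log10 q of at least 5, lowered the share differences to 0.201 and 0.463 points for dox in DM, to 1.20 and 1.24 between media without dox and to 0.326 and 0.433 with dox, and the log2 ratio differences to 0.031 and 0.077 for dox in DM and to 0.040 and 0.055 between media with dox; the cause was not tested. With CAGCTG within 50 bp of the summit the share differed by 1.29 points without dox. Leaving out 1 library at a time gave share differences of 1.06 to 1.81 points (dox in GM), 1.89 to 3.16 (dox in DM), 1.63 to 2.73 (differentiation without dox) and 2.52 to 3.78 (with dox). The log2 ratio differences were 0.14 to 0.27, 0.23 to 0.43, 0.22 to 0.40 and 0.33 to 0.51. Differences in median height relative to other distal regions ranged from 0.0093 to 0.038, 0.0068 to 0.027, 0.075 to 0.092 and 0.061 to 0.090. On log2 of −log10 p they were 0.10, 0.17, 0.14 and 0.20. For differentiation without dox the height difference was 0.063 as a mean and 0.067 with CAGCTG within 50 bp.

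Counts of regions gained and lost moved most. For dox in GM (10 and 3), lists of 1/2 the length (7355 peaks) gave 6 and 1, ranking by fold enrichment 20 and 1, −log10 q of at least 5 gave 21 and 0, all deposited peaks 0 lost, and CAGCTG within 50 bp 4 gained. For dox in DM (37 and 15) the shorter lists gave 20 and 4, −log10 q 61 and 0, all peaks 0 lost, all 16 libraries 0 lost and 50 bp 7 lost. For differentiation without dox (44 and 17) all peaks gave 9 and 7, shorter lists 20 and 10, −log10 q 8 and 0, fold enrichment 9 lost, all 16 libraries 2 gained, and 50 bp 24 and 9. With dox (56 and 18) all peaks gave 19 and 2, shorter lists 32 and 7, −log10 q 25 and 2, all 16 libraries 35 gained and 50 bp 9 lost. Fewer libraries make the criterion easier: without 1 library at a time the gained ranged from 14 to 25, 47 to 78, 47 to 95 and 62 to 98, and the lost from 3 to 6, 21 to 30, 19 to 33 and 20 to 47.

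The limma counts of E-box regions depended on the value tested. With the replicate block, 9 rose and 1 fell for dox averaged over both media, 14 and 7 for differentiation without dox and 1 and 2 with dox, and the block changed no other count of calls by over 1.5 times; the paired mean of the share differences was 1.57, 2.43, 2.35 and 2.94 points. On log2 of −log10 p, 12 rose and 11 fell without dox, 9 and 7 with dox, and 1 fell for dox averaged. Ranks gave 32 and 14, 54 and 10, and 1 higher for dox averaged. Median centring gave 5 lower without dox, 2 lower with dox, and 1 higher and 1 lower for dox averaged. For the fits on log2 of −log10 p and with median centring, the share over all regions is not given. Their counts therefore show dependence on the value tested and nothing particular to E-box regions. Without dox, 1 rose with CAGCTG within 50 bp and 1 at over 5 kb from a start. Leaving out 1 library gave 1 to 7 higher and 0 to 4 lower without dox, 0 to 1 higher and 0 to 3 lower with dox and 0 to 2 higher for dox averaged: without GM no dox replicate 4 gave 7 higher and 4 lower without dox and 2 higher for dox averaged, without DM no dox replicate 3 or GM no dox replicate 1 or 2 none was lower without dox, without GM +dox replicate 4 gave 3 lower with dox, and the 1 higher with dox was lost in 12 of 14 fits. Read depth and list length limit which weak peaks are listed, and E-box regions without a peak in every library were not tested for height.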
